A study of Mus musculus with 12 samples.

Results

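The 76 genes described here encode the mitochondrial ribosomal proteins. They were taken from the 14801 genes of the deposited table by their mouse symbols, Mrpl or Mrps followed by a number and at most 1 letter, which gave 47 Mrpl genes, named for the large subunit, and 29 Mrps genes, named for the small subunit. Messenger RNA was sequenced in primary cerebrocortical cells of Wild Type mouse fetuses, which hold neurons and glia of the fetal cortex. In 6 cultures triiodothyronine (T3), the active thyroid hormone, was present at 10 nM for 24 h, and 6 cultures were kept in parallel without T3. Both kinds had grown for 9 days from fetuses of gestational day 17.5 and had spent 24 h without B27, a medium supplement that itself contains T3, before T3 was added. The 2 kinds were set up side by side from the cortex of each of 6 fetuses, numbered here as mouse 1 to 6, so a difference is always taken within a mouse. The labels do not say whether fetuses shared a dam.

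Mitochondria carry their own ribosomes, which translate the few messenger RNAs of mitochondrial DNA into core subunits of the respiratory chain and the ATP synthase. Their ribosomal RNAs come from mitochondrial DNA, whereas all of their proteins are encoded in the nucleus, made in the cytosol and imported. Some of these proteins are related to ribosomal proteins of bacteria and others occur in mitochondria alone. Neurons depend heavily on oxidative phosphorylation, and in liver and muscle thyroid hormone is known for raising mitochondrial gene expression, in part through the coactivator Ppargc1a.

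The symbols do not map perfectly onto the particle. Mrps18a and Mrps30 are proteins of the large subunit in the structure of the mammalian mitochondrial ribosome. Mrps36 is not a ribosomal protein at all but a component of the alpha-ketoglutarate dehydrogenase complex. By structure the table thus holds 49 genes of the large subunit and 26 of the small subunit, of which 45 have a bacterial counterpart and 30 do not. Subunits are given below by symbol unless structure is named. Mrpl33 and Mrpl53, which the mouse annotation also lists, had no row in the deposited table and so could not be analysed here.

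The promoters of these genes are shown because nuclear respiratory factor 1 (NRF1), GA-binding protein, which reads ETS sites, and Yin Yang 1 (YY1) are the classical activators of nuclear genes for mitochondria. RefSeq windows on GRCm38.p6, from 250 bases before to 50 after the gene start, were matched for 67 of the 76 genes. They were searched on both strands for the NRF1 core GCGCATGC, the ETS site CCGGAAG and the YY1 site AAGATGGCG, and for DR4, 2 copies of AGGTCA 4 bases apart, which thyroid hormone receptors bind. The 5 windows below belong to 4 genes that are among those with the largest increase or decrease and hold a match, and to Mrpl32, which holds the most NRF1 cores. They are written 5′ to 3′ on the strand of the gene, with every match in capitals. Mrps24 lies at chr11:5707652-5707951 on the minus strand, Mrps18a at chr17:46110754-46111053 on the plus strand, Mrps16 at chr14:20393441-20393740 on the minus strand, Mrps33 at chr6:39810887-39811186 on the minus strand and Mrpl32 at chr13:14612988-14613287 on the minus strand.
Mrps24: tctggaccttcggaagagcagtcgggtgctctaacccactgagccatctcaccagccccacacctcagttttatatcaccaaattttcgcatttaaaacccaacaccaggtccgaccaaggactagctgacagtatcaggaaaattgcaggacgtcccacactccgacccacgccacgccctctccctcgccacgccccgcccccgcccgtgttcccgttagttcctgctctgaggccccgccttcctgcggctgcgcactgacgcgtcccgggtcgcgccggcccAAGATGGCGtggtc
Mrps18a: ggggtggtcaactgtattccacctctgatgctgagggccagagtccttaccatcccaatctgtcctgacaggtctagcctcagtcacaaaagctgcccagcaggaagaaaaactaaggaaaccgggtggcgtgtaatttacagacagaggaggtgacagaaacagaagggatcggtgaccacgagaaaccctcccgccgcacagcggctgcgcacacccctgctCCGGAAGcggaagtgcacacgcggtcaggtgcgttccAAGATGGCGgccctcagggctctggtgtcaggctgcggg
Mrps16: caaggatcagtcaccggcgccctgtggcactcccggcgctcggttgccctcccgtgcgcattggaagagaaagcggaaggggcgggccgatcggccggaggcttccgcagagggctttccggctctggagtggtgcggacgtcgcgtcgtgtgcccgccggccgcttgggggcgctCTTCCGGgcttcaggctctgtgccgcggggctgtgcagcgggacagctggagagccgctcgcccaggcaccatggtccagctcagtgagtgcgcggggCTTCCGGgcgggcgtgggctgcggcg
Mrps33: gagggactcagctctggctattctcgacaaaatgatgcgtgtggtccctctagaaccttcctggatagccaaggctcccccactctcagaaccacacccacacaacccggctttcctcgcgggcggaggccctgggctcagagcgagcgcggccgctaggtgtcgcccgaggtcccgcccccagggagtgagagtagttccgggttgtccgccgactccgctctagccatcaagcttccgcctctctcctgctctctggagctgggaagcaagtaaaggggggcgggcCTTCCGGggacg
Mrpl32: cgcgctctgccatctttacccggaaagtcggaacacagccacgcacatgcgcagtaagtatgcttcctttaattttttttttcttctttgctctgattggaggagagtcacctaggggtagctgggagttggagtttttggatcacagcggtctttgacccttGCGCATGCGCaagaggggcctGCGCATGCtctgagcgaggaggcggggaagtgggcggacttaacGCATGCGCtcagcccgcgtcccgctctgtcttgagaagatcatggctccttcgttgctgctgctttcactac

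In the windows of Mrps24 and Mrps18a the YY1 letters lie 36 and 11 bases after the gene start. That of Mrps18a also holds an ETS site, 26 bases before the start. The window of Mrps16 shown holds 2 ETS sites, read as CTTCCGG because they lie on the opposite strand. Another annotated start of Mrps16, with its window at chr14:20393585-20393884, gave no match. Mrps33, the gene with the largest decrease, holds 1 ETS site, also on the opposite strand. In Mrpl32 there are 4 matches to the NRF1 core, the first 2 of which overlap, 87 to 22 bases before the start. Over the 67 genes, 24 held an ETS site (35.8%, against 19.6% of the 10037 tested genes with a window), 8 a YY1 site (11.9%, against 3.57%) and 7 an NRF1 core (10.4%, against 6.17%). At least 1 of these letters stood in 34 of the 67 (50.7%, against 26.9%). The DR4 letters were found in none of the windows, those of the other genes included. Only this exact form was searched for, and inexact copies would be missed. With 0 matches among all 10037 genes, this search cannot set the members apart from other genes. A match is a description of letters and not of binding, and no test was made of these shares.

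Many of the genes start beside another gene. Of the 74 genes that entered the test for T3, 33 (44.6%) have a coding gene that starts within 1000 bases on the opposite strand, against 1967 of the 12410 coding genes tested (15.9%). Some of these neighbours work in the same organelle. Mrpl46 and Mrps11 of the 2 subunits face each other, Mrpl36 faces Ndufs6 and Mrpl47 faces Ndufb5, both subunits of respiratory complex I. Mrpl43 faces Twnk, the helicase of mitochondrial DNA, and Mrps12 faces Sars2, the mitochondrial seryl-tRNA synthetase. The genes are spread over 17 chromosomes, with 11 on chromosome 11 and 8 on chromosome 17. Their total length of annotated exon per gene is short, with a median of 2394 bases against 4484 over all genes tested.

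Levels are given in CPM, counts of a gene scaled to library size with the TMM correction for library composition. Libraries held 5272092 to 10837895 reads, and in all 6 mice the one with T3 was deeper, 1.03-fold to 1.67-fold. Neuronal markers were abundant, with a sum over 8 genes of 6265 to 7736 CPM in T3 cultures and 6660 to 8607 CPM in cultures without T3, so the labelled tissue matched its markers. Astrocyte markers, 8 genes, summed to 1229 to 3205 CPM in T3 cultures and 812.8 to 2741 CPM in cultures without T3, and 4 of the 7 tested were higher with T3 (Gfap, Aqp4, Slc1a2 and Aldh1l1). Among markers of oligodendrocyte precursors, 3 of 6 were higher (Olig1, Olig2 and Gpr17), with sums of 394.3 to 497.0 CPM in T3 cultures and 291.6 to 438.2 CPM without. Of the other lists, 2 of 8 neuronal markers were higher (Rbfox3 and Nefl), but 5 of the 8 had a change below 0. The median change of the neuronal markers was -0.025. Among mural and fibroblast markers 1 of 6 was lower (Dcn), and 5 of the 6 had a change below 0. Higher and lower here mean an adjusted p under 0.05 by limma, which 3.37% and 2.14% of all genes tested reached. Leaving out 1 mouse left 1 to 4 of the astrocyte and 2 to 4 of the precursor markers called, with fewest astrocyte markers without mouse 6. With no block for the mouse, 0 astrocyte, 1 precursor, 0 neuronal and 0 mural and fibroblast markers were called. With the length and GC trend removed, 2 astrocyte and 4 precursor markers were higher, and 3 neuronal markers were higher and 1 lower. The part of these cell types in the results on mitochondrial ribosomal proteins was not tested, and in such bulk samples fewer cells of a type and less RNA per cell cannot be told apart. Markers of heart muscle set apart 1 library, mouse 4 without T3, where their sum was 1213 CPM, against 3.07 to 5.80 CPM in the T3 cultures. Microglial markers were near 0, with sums of 3.55 to 6.24 CPM in T3 cultures and 2.64 to 8.16 CPM in cultures without T3, and no red blood cell marker had a row.

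Together the 76 genes took 0.190 ± 0.0052% of the reads in T3 cultures and 0.184 ± 0.0055% in cultures without T3 (SD, n = 6 each). Their summed level was 1896 ± 64.7 CPM in T3 cultures and 1837 ± 29.6 CPM in cultures without T3. The T3 sums spanned 1826 to 1985 CPM and the others 1802 to 1872 CPM, so the groups overlapped. In mice 3 to 6 the T3 culture was above every culture without T3, whereas in mouse 1 it was the lower one of its pair, at 1826 against 1838 CPM.

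The large subunit summed to 1234 ± 40.5 CPM in T3 cultures and 1189 ± 15.1 CPM in cultures without T3 (SD, n = 6 each). The small subunit summed to 662.1 ± 26.8 CPM in T3 cultures and 647.7 ± 16.2 CPM in cultures without T3. The T3 culture held more large-subunit signal in 6 of 6 mice, by 0.013 to 0.12 on the log2 scale, and more small-subunit signal in 5 of 6 mice. As a share of all reads, with no TMM correction, mouse 4 went the other way: its large subunit took 0.1219% of reads with T3 and 0.1234% without, and its small subunit 0.0671% with T3 and 0.0680% without. In mouse 1 the small subunit was lower with T3 on both scales. It summed to 625.5 CPM with T3 and 649.0 CPM without, and took 0.06455% of reads with T3 and 0.06685% without. The ratio of the large to the small sum stayed within 1.82 to 1.92 in T3 cultures and 1.79 to 1.88 in cultures without T3.

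**Figure D1:**
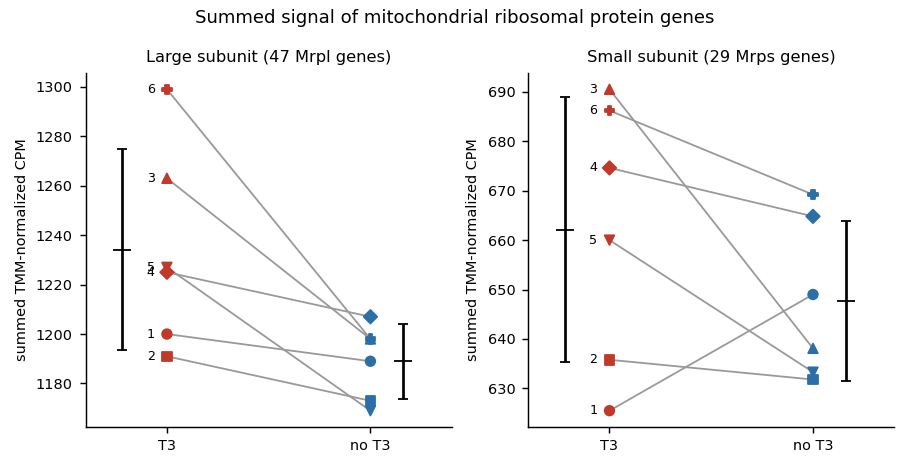
Summed TMM-normalized CPM of the 47 Mrpl genes (left) and the 29 Mrps genes (right) in T3 cultures (red) and cultures without T3 (blue). Symbols and the numbers beside the T3 points mark the mouse, lines join the 2 cultures of a mouse, and the black bars give the mean ± SD of 6. The axes do not start at 0. In these TMM-normalized values the large subunit is higher with T3 in 6 of 6 mice (in 5 of 6 as a share of reads), and the groups overlap in both panels.

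No mitochondrial ribosomal protein gene passed the test for T3. Of the 76 genes, 74 had enough reads to be tested, 46 Mrpl and 28 Mrps, and 0 of them reached an adjusted p of 0.05 by limma with the mouse as a block, whereas 754 of all 13663 genes tested (5.52%) did, 3.37% higher and 2.14% lower. The smallest adjusted p among them was 0.126, for Mrps18a. At an unadjusted p of 0.05, 10 of the 74 passed by limma, 8 by edgeR, 8 by limma-voom and 1 by DESeq2. All 10 by limma were higher with T3, 6 Mrpl and 4 Mrps, and 0 were lower. By limma, 9.68% and 7.79% of all genes tested were higher and lower at that limit. Shares of all genes by edgeR, limma-voom and DESeq2 are not given here, so those counts lack that comparison. The 95% interval of the change lay within 1.5-fold up or down for 73 of the 74 genes, the exception being Mrps34.

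The small differences leaned towards higher values with T3. The fitted change was above 0 for 53 of the 74 genes (71.6%), against 51.1% of all genes tested, and its median was 0.038 on the log2 scale, against 0.0031 over all genes tested. In the large subunit 37 of 46 genes were above 0 (80.4%), with a median of 0.052. In the small subunit 16 of 28 were above 0 (57.1%), with a median of 0.014 that was -0.0052 for Mrps without mouse 3. With every library thinned to the depth of the smallest, 48 of 74 genes were above 0, against 48.8% of all genes. Without mouse 4, 56 of 74 were above 0 and the median was 0.039.

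**Figure D2:**
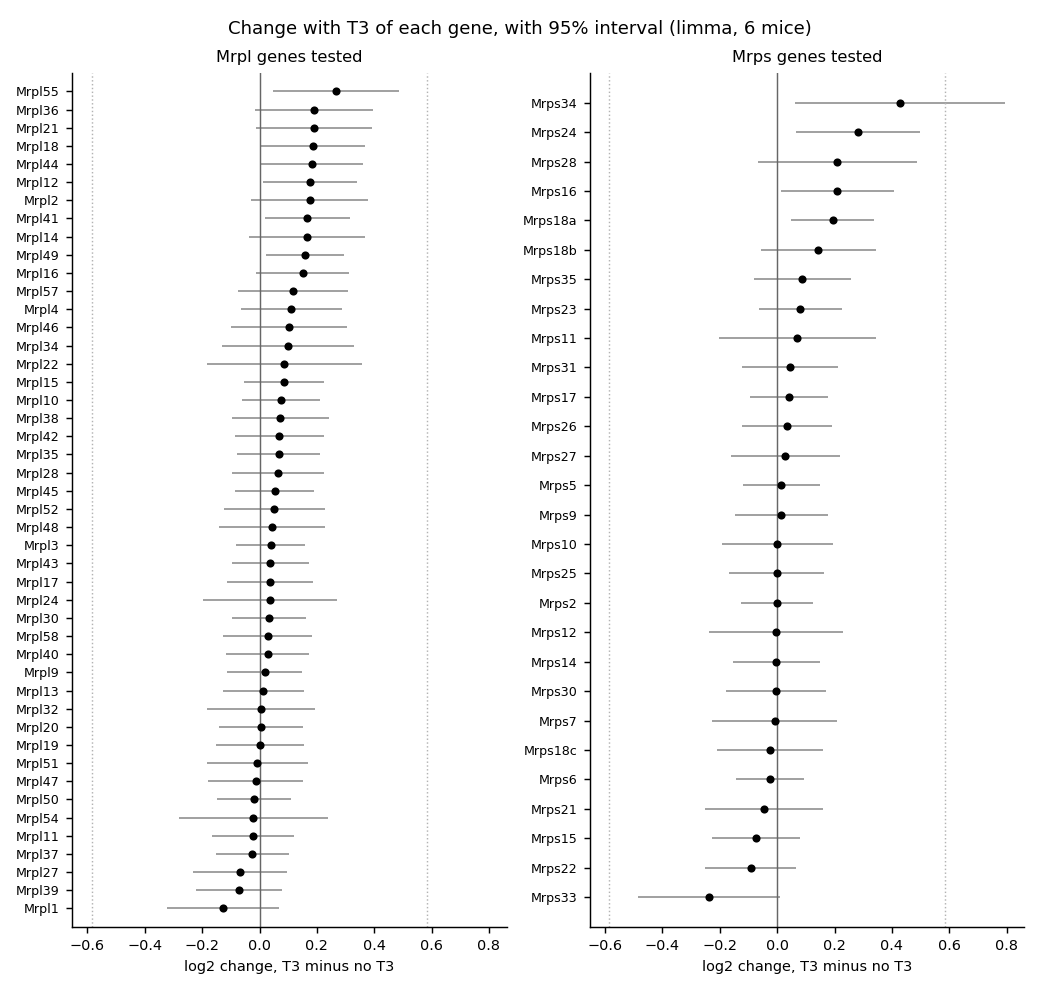
Log2 change, T3 minus no T3, of the 46 Mrpl genes (left) and 28 Mrps genes (right) tested, from limma with the mouse as a block. Points are the fitted changes, grey lines their 95% intervals, and dotted lines mark 1.5-fold in each direction. All points but that of Mrps34 lie between -0.24 and 0.28.

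The lean differed from mouse to mouse in both subunits. The median log2 difference of the Mrpl genes was -0.018, 0.0145, 0.055, 0.046, 0.11 and 0.11 in mice 1 to 6. That of the Mrps genes was -0.028, -0.017, 0.14, 0.014, 0.11 and 0.088 in the same mice. In mice 1 and 2 the T3 culture stood at or near the level of its partner in both subunits, and in mice 3, 5 and 6 it was higher in both. In mouse 4 both medians were also above 0, that of Mrps only at 0.014. The number of genes higher with T3 was 34, 38, 56, 44, 48 and 54 of 74 in mice 1 to 6. Over all 13663 genes tested it was 6773, 6638, 6957, 7432, 7036 and 7264 in the same mice.

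Large against small, the median change of Mrpl genes exceeded that of Mrps genes by 0.039 on the log2 scale. Within single mice the difference between these medians was 0.0093, 0.032, -0.083, 0.032, -0.0044 and 0.022 in mice 1 to 6. This difference was above 0 in 4 of 6 mice, with an SD of 0.044, and reached 0.039 in no mouse. That SD describes single mice and is not the error of the gap, and the gap itself was not tested. It was 0.062 without mouse 3 and 0.014 without mouse 6. By means over genes in place of medians the gap was also smaller, at 0.017, with 0.065 for Mrpl and 0.048 for Mrps. Sorting by structure in place of symbol left the medians at 0.052 and 0.014.

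**Figure D3:**
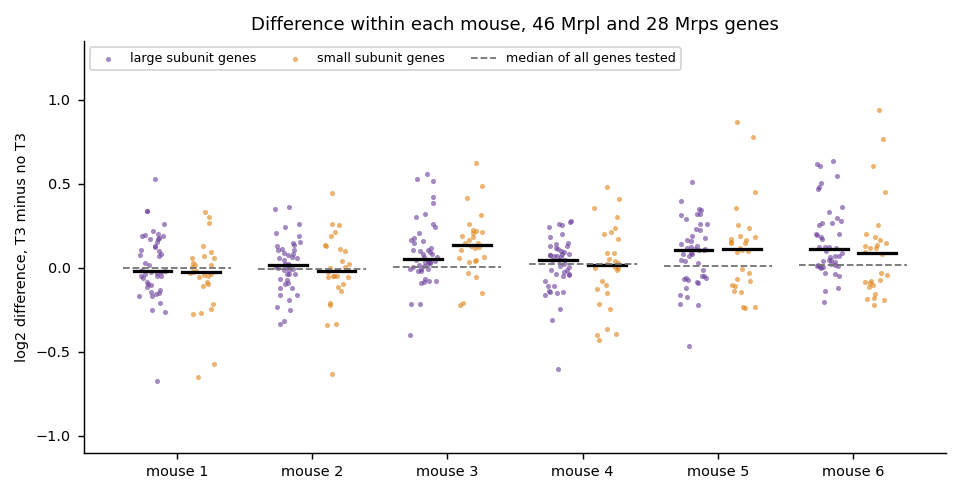
Log2 difference between the T3 culture and the culture without T3 of each mouse for the 46 Mrpl genes (purple) and 28 Mrps genes (orange) tested. Black bars are the medians of each subunit and dashed lines the median of all 13663 genes tested. Both subunits lie near the dashed line in mice 1 and 2 and above it in mice 3, 5 and 6.

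Proteins with a bacterial counterpart and those of mitochondria alone gave like counts. Of the 44 tested genes with a counterpart 32 were above 0, with a median change of 0.036, and of the 30 without one 21 were above 0, with a median of 0.045. By structure, the 28 large-subunit genes with a counterpart had 24 above 0, with a median of 0.066, and the 16 small-subunit genes with one had 8, with a median of -0.00050. Without a counterpart, 14 of 20 large-subunit genes and 7 of 10 small-subunit genes were above 0, with medians of 0.047 and 0.040.

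Mrps34, a small-subunit protein of mitochondria alone, had the largest fitted change. It had 2.56, 3.87 and 4.28 CPM as its lowest, median and highest values in T3 cultures, against 1.93, 2.35 and 3.37 CPM in cultures without T3. The groups overlapped, and T3 was the higher one in 5 of 6 mice. The change was 0.43 on the log2 scale (95% interval 0.063 to 0.79, adjusted p = 0.192 by limma). Only 15 to 47 reads per library stood behind these values. Annotation limits it too: 63.4% of the Mrps34 exons are shared with Mapk8ip3 on the opposite strand, and 37.0% with Nme3 on the same strand. The library kit does not mark strand, and reads in these stretches cannot be told apart.

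Mrps24, related to a bacterial protein of the small subunit, had 16.9, 20.3 and 23.5 CPM as lowest, median and highest values in T3 cultures, against 14.1, 15.8 and 19.65 CPM in cultures without T3. Mice 1 and 2 were lower with T3 and mice 3 to 6 higher. Its change was 0.28 (SE 0.10, adjusted p = 0.134 by limma). Without mouse 1 it was 0.38 with an adjusted p of 0.0203, which passed. Exons of Urgcp on the same strand cover 15.4% of its exons.

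Mrps18a, a large-subunit protein despite its symbol, had 28.97, 35.6 and 37.25 CPM as lowest, median and highest values in T3 cultures, against 28.8, 30.1 and 32.4 CPM in cultures without T3. In 5 of 6 mice the T3 culture was above every culture without T3, and in mouse 1 it was below its partner. The change was 0.19 (SE 0.069, adjusted p = 0.126 by limma), and without mouse 1 it was 0.24 with an adjusted p of 0.0472. The gene lies at chr17:46110986-46128910 on the plus strand and shares no exon with another gene.

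Mrpl55, a large-subunit protein with a bacterial counterpart, had 9.58, 12.0 and 13.2 CPM in T3 cultures as lowest, median and highest, against 7.91, 9.88 and 11.7 CPM in cultures without T3. Its change was 0.27 (SE 0.11), with T3 higher in 5 of 6 mice. Mrps16, mutated in a human defect of oxidative phosphorylation, averaged 17.3 ± 1.89 CPM in T3 cultures and 14.95 ± 2.20 CPM in cultures without T3 (SD, n = 6 each). It changed by 0.21 and was higher in 4 of 6 mice. Mrps28 had the same change of 0.21, higher in 5 of 6 mice, with 40 to 98 reads per library. None of these 3 passed the test, with adjusted p of 0.175, 0.249 and 0.461 by limma.

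A change of the same sign in 6 of 6 mice was found for 3 genes, Mrpl18, Mrpl41 and Mrps18b, all of them higher, where 5.79% of all genes tested were higher in 6 of 6 mice and 4.98% lower. These 3 were picked out after their values were seen. Mrpl41, a large-subunit protein, had 28.6, 30.1 and 32.2 CPM as lowest, median and highest in T3 cultures, against 23.7, 26.9 and 29.4 CPM in cultures without T3. Its groups overlapped only through mouse 1 without T3. Its change was 0.17 (SE 0.071, adjusted p = 0.215 by limma). Mrpl18, which in human cells also carries cytosolic 5S ribosomal RNA towards mitochondria, averaged 16.1 ± 0.607 CPM in T3 cultures and 14.2 ± 1.65 CPM in cultures without T3 (SD, n = 6 each). Its change was 0.19 (adjusted p = 0.268 by limma), and 10.1% of its exons are shared with Tcp1 on the opposite strand. Mrps18b changed by 0.14 (adjusted p = 0.494 by limma), with 30.5% of its exons shared with an antisense transcript. In no gene did all T3 cultures lie above or below all cultures without T3, where 1.05% of all genes tested were fully above and 0.622% fully below.

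The other large-subunit genes with an unadjusted p under 0.05 were Mrpl12, Mrpl44 and Mrpl49, also named after their values were seen. Mrpl12, a stalk protein that recruits translation factors, averaged 28.7 ± 3.84 CPM in T3 cultures and 25.3 ± 2.85 CPM in cultures without T3 (SD, n = 6 each). Mrpl44, which resembles a double-stranded RNA nuclease, averaged 16.2 ± 0.542 CPM in T3 cultures and 14.3 ± 1.37 CPM in cultures without T3. Mrpl49 averaged 40.1 ± 2.42 CPM in T3 cultures and 35.9 ± 2.87 CPM in cultures without T3. All 3 were higher in 5 of 6 mice, by 0.16 to 0.18 on the log2 scale, with adjusted p of 0.199 to 0.271 by limma.

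Decreases were smaller than increases. Mrps33, a small-subunit protein of mitochondria alone, had 5.71, 7.59 and 8.13 CPM as lowest, median and highest values in T3 cultures, against 7.03, 8.80 and 10.2 CPM in cultures without T3. It was lower with T3 in 5 of 6 mice, with mouse 3 the exception, and its change was -0.24 (95% interval -0.49 to 0.0081, adjusted p = 0.306 by limma). Mrpl1 had a change of -0.13, with 18.9 ± 2.45 CPM in T3 cultures and 20.6 ± 2.10 CPM in cultures without T3 (SD, n = 6 each). Mrps22, mutated in a human mitochondrial disease, had a change of -0.092 and was lower in 5 of 6 mice. Mrps15, Mrpl39 and Mrpl27 had changes of -0.074, -0.073 and -0.068, each with 2 mice higher and 4 lower. The adjusted p of these last 5 genes ran from 0.540 to 0.734 by limma.

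Levels were compared per kilobase of annotated exon, since long genes collect more reads. The exons of all annotated transcripts of a gene were joined for this, 607 to 8631 bases per gene. The order of genes by level therefore depends on how much exon is annotated, also where a transcript is not in use in these cells. The median gene stood at 9.31 CPM per kilobase, against 6.67 over all genes tested, with 10.5 for Mrpl and 6.71 for Mrps. The tested genes differed from each other by up to 24.2-fold, with quartiles of 5.53 and 15.6 CPM per kilobase.

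Mrps6, a small-subunit protein with a bacterial counterpart, was the highest, at 35.7 ± 3.44 CPM per kilobase in T3 cultures and 36.3 ± 3.23 in cultures without T3 (SD, n = 6 each). In CPM it ran from 47.8 to 63.9 in T3 cultures, with a median of 54.2, and from 49.7 to 63.3 in cultures without T3, with a median of 56.2. Next came Mrpl41, at 33.8 ± 1.503 CPM per kilobase with T3 and 30.1 ± 2.06 without, and Mrpl28, at 31.3 ± 3.36 with T3 and 29.9 ± 3.35 without. Mrpl50 followed at 28.2 ± 1.22 with T3 and 28.65 ± 3.12 without, and Mrpl43 at 23.75 ± 1.08 with T3 and 23.1 ± 0.796 without. Over all 12 cultures the first 4 stood at 36.0 ± 3.20, 32.0 ± 2.59, 30.6 ± 3.28 and 28.4 ± 2.27. Neighbours among these 4 overlapped within 1 SD, so the order of neighbours does not exceed the spread. Mrps6 and Mrpl50 did not overlap in this way, and Mrpl43 lay lower, at 23.4 ± 0.961. The changes of Mrps6, Mrpl28, Mrpl50 and Mrpl43 were -0.026, 0.064, -0.019 and 0.038, with adjusted p of 0.740 to 0.924 by limma. Shared exons limit Mrps6 (19.9%, with a gene on the same strand) and Mrpl43 (33.4%, with Twnk on the opposite strand).

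At the low end Mrpl23, a large-subunit protein near the peptide exit tunnel, had only 1 to 12 reads per library, 0.135 ± 0.072 CPM per kilobase with T3 and 0.171 ± 0.092 without. Mrps36 had 5 to 18 reads, 0.909 ± 0.289 CPM per kilobase with T3 and 1.13 ± 0.308 without. These 2 genes were too low to be tested. Genes named as pseudogene copies of both had rows of their own. Mrpl23-ps1 held 83 to 174 reads in T3 cultures and 71 to 108 in cultures without T3, and Mrps36-ps1 held 35 to 56 reads in T3 cultures and 21 to 34 in cultures without T3. How the authors' counting divided reads between a gene and its copy is not given in the sources used here, so the levels of both genes are uncertain. Mrps34, Mrps10 and Mrpl48 were the lowest genes tested, at 1.49, 1.52 and 1.77 CPM per kilobase over all 12 cultures. Mrps10 had 12.3 ± 1.71 CPM in T3 cultures and 12.3 ± 1.69 CPM in cultures without T3, and Mrpl48 had 14.7 ± 0.640 CPM with T3 and 14.3 ± 1.24 CPM without (SD, n = 6 each). Mrpl48 also has a copy, Mrpl48-ps, with 110 to 190 reads in T3 cultures and 87 to 135 in cultures without T3.

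**Figure D4:**
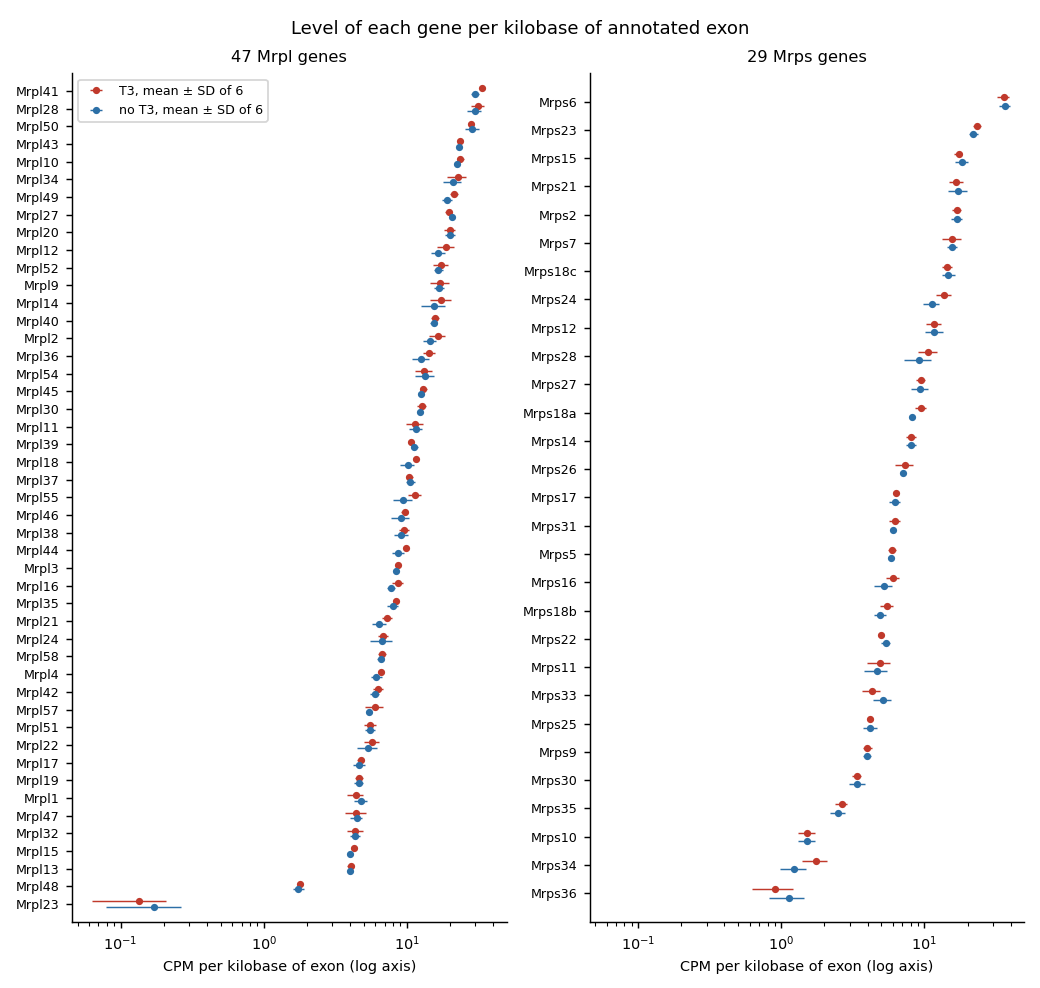
Mean ± SD over 6 cultures of CPM per kilobase of annotated exon (log axis) for 47 Mrpl genes (left) and 29 Mrps genes (right), with T3 in red and no T3 in blue. Genes are sorted by the mean over all cultures. Mrps6 is highest at 36.0 and Mrpl23 lowest at 0.153.

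These genes varied little from mouse to mouse. The SD between mice of the mean log2 level had a median of 0.090 over the tested members, against 0.13 over all genes tested. It was largest for Mrpl14 (0.225), a large-subunit protein with a bacterial counterpart, then for Mrps10 (0.19), Mrpl47 (0.18) and Mrpl9 (0.17). Mrpl14 had a lowest value of 11.9 CPM and a median of 17.8 CPM in T3 cultures, against 11.3 and 14.5 CPM in cultures without T3, and the groups overlapped. Its log2 change was 0.17 (adjusted p = 0.420 by limma), with T3 higher in 4 of 6 mice. Mrpl47 averaged 19.65 ± 3.21 CPM with T3 and 19.7 ± 1.88 CPM without, and Mrpl9 averaged 46.4 ± 7.12 CPM with T3 and 45.5 ± 3.75 CPM without (SD, n = 6 each). Mrpl43 and Mrpl15 had the smallest SD between mice, 0.032 and 0.034. Mrpl15 ran from 34.5 to 38.9 CPM in T3 cultures and from 32.2 to 36.7 CPM in cultures without T3, with a change of 0.086 (adjusted p = 0.574 by limma). Mrps30, the other large-subunit protein with a small-subunit symbol, averaged 22.5 ± 1.64 CPM with T3 and 22.65 ± 2.75 CPM without, with a change of -0.0048.

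The rest of the translation apparatus of mitochondria gave no call either. The 5 mitoribosome proteins with other symbols, Dap3, Ptcd3, Chchd1, Aurkaip1 and Gadd45gip1, had 0 past the threshold, 4 above 0 and a median change of 0.090. Of 25 factors that assemble the mitochondrial ribosome, 0 passed and 16 were above 0, with a median of 0.035. For 15 translation factors these figures were 0, 8 and 0.012, and for 17 aminoacyl-tRNA synthetases 0, 8 and -0.0030. Among 11 genes that copy or transcribe mitochondrial DNA 0 passed and 4 were above 0, with a median of -0.012. At an unadjusted p of 0.05 by limma, the translation factor Tufm (adjusted p = 0.134), the transcription terminator relative Mterf2 (0.128) and 0 genes of the other 3 lists passed. Tufm and Mterf2 were picked out after their values were seen.

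The ribosomal RNAs of the same particle, named after their values were seen, did not pass. Messenger RNA was sequenced here, so these values need not follow the total amount of ribosomal RNA. The small ribosomal RNA gene mt-Rnr1 averaged 1306 ± 206 CPM in T3 cultures and 1345 ± 127 CPM in cultures without T3 (SD, n = 6 each). The large ribosomal RNA gene mt-Rnr2 averaged 2745 ± 477 CPM in T3 cultures and 2818 ± 332 CPM in cultures without T3. Their changes were -0.051 and -0.047, with adjusted p of 0.857 and 0.894 by limma, and both turned to above 0 without mouse 3 or mouse 5. Over the 9 mitochondrial RNAs tested the median change was 0.00055 and 0 passed.

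Among 12 regulators of nuclear genes for mitochondria, 1 rose, Ppargc1a (PGC-1 alpha), a coactivator of NRF1 and other factors that drives mitochondrial biogenesis. It had 59.9, 76.7 and 92.1 CPM as its lowest, median and highest values in T3 cultures, against 54.1, 63.6 and 74.35 CPM in cultures without T3. The groups overlapped, but within a mouse the T3 culture was higher in 6 of 6. The change was 0.25 (SE 0.059, 1.19-fold, adjusted p = 0.0142 by limma). The call was lost without mouse 6, with an adjusted p of 0.0596, and in the fit without the mouse as a block, with 0.359. The median change of this list was 0.047, with 8 of 12 above 0.

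Its relative Ppargc1b had 4.31 ± 0.383 CPM in T3 cultures and 2.98 ± 0.766 CPM in cultures without T3 (SD, n = 6 each). It was higher in 6 of 6 mice, by 0.50 on the log2 scale, and did not pass, with an adjusted p of 0.0628 by limma, though it did without mouse 1 (0.0405). Esrra, a nuclear receptor that works with Ppargc1a, averaged 18.6 ± 2.82 CPM with T3 and 15.4 ± 3.01 CPM without (adjusted p = 0.208 by limma). Of the factors whose letters were searched for in the promoters none passed. Nrf1 averaged 20.47 ± 1.93 CPM in T3 cultures and 20.39 ± 1.63 CPM in cultures without T3, with a 95% interval of the log2 change of -0.16 to 0.17. Gabpa, the DNA-binding subunit of GA-binding protein, averaged 64.5 ± 11.6 CPM in T3 cultures and 63.55 ± 8.11 CPM in cultures without T3, with an interval of -0.13 to 0.15. Its partner subunits Gabpb1 and Gabpb2 had changes of -0.12 and 0.081, and Gabpb1 was higher with T3 in 1 of 6 mice (adjusted p = 0.439 by limma). Yy1 averaged 61.7 ± 6.50 CPM in T3 cultures and 63.4 ± 3.85 CPM in cultures without T3, with an interval of -0.18 to 0.097.

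**Figure D5:**
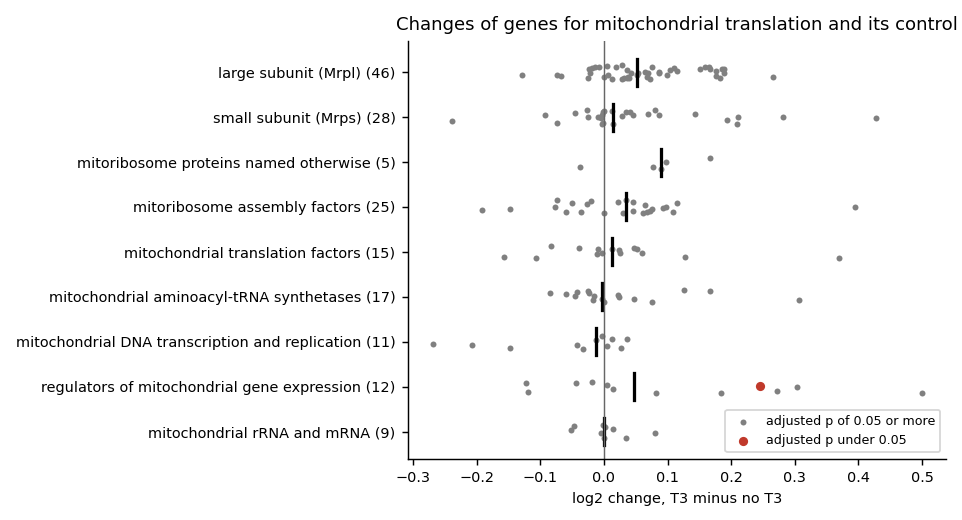
Log2 change, T3 minus no T3, of the tested genes of each group named on the left, with the number of genes in brackets. Grey dots are genes with an adjusted p of 0.05 or more, the red dot is Ppargc1a, and black bars are medians. The medians of all groups lie between -0.012 and 0.090.

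Beside the nuclear genes of the respiratory chain and ATP synthase, which the mitochondrial ribosome's products join, the lean was smaller. Of those 81 genes 76 were above 0 (93.8%), with a median of 0.10, and 3 were higher at an adjusted p of 0.05, which is 3.70% against the 3.37% of all genes tested. These, picked out after their values were seen, were Ndufa5 (0.29), Ndufa1 (0.27) and Cox5a (0.21), subunits of complexes I and IV, with adjusted p of 0.0088 to 0.024 by limma. With the length and GC trend removed 10 were called, and 1 was called by DESeq2 or with no block for the mouse. Leaving out 1 mouse gave 0 calls without mouse 6 and 9 without mouse 1, while 2 members of the mitochondrial ribosome list were called without mouse 1 and 0 without any other mouse. Of the 72 cytosolic ribosomal protein genes tested 55 were above 0 (76.4%), with a median of 0.057 and 0 called. The difference between these lists was not tested.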

How the data were processed

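RNA was sequenced in 12 libraries of mouse cerebrocortical cultures as single reads of 75 bases, per the labels' protocols. The submitters' processing notes list GRCm38 and CASAVA, FastQC, Bowtie, TopHat, HTSeq and edgeR. The sources used here give neither their versions nor the counting mode and strand setting. What was deposited is a signal that the authors normalized by TMM, per the file headers, read here as CPM. All values were whole multiples of 1 read within 0.01 reads, which gave back 5272092 to 10837895 reads per library. Of 14801 identifiers 14648 had a symbol.

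Genes were tested two-sided on log2(value + 0.5) by limma 3.58.1 (R 4.3.3), with the mouse as a block and a robust trend, with Benjamini-Hochberg adjustment over 13663 genes kept by filterByExpr of edgeR 4.0.16 (1138 removed) and a threshold of 0.05. Changes on this scale understate those of low genes. Sums and medians over members carry no test. The pairing comes from the series' design. Deviations from the group means correlated at 0.237 to 0.638 within a mouse, higher than with any other mouse in 6 of 6, and at a median of -0.106 between mice.

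Alternatives were other pseudocounts, filters and scaling, edgeR, DESeq2 1.42.0 and limma-voom on recovered reads, thinned reads, a length and GC correction, and leaving out each mouse. Members and lists were chosen with earlier results of these data known. Named were the 6 largest and 6 smallest changes, the 5 highest and 5 lowest levels, the 4 largest and 2 smallest SD between mice, and Mrps18a, Mrps30, Mrps36 and 5 regulators whatever their values. Exon lengths, positions and overlaps come from the GENCODE annotation of GRCm38, and promoters from RefSeq on GRCm38.p6. The script of the test was also run on simulated counts.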

Additional observations from a re-analysis of the deposited data

Results flagged for a closer look

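Mrps18a stood at 28.97 CPM in the T3 culture of mouse 1, below the 34.5 to 37.25 CPM of the other T3 cultures by more than the limit of Dixon's test for 6 samples. Leaving out mouse 1, both cultures together, carried Mrps18a past the threshold. Gabpa stood at 86.6 CPM in the same T3 culture of mouse 1, above the other T3 cultures by more than that limit, and without mouse 1 its change was -0.031. In all, 102 groups of 6 values were looked at and 2 stood out, where chance flags about 1 in 20.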

How the results depend on the processing

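The count of called members was 0 under every alternative but 1: without mouse 1 it was 2 (Mrps24 and Mrps18a), a range of 0 to 2 over the mice left out. Members with under 10% of their exons shared, an alternative chosen after seeing the data, gave 0 of 58. Over all genes, 754 calls became 178 with no replicate block, 1359 with a length and GC trend removed, and 458 to 860 with 1 mouse left out (458 without mouse 3). The regulators had 1 call, which became 0 with no replicate block and 0 to 2 with 1 mouse left out. The mitochondrial RNAs had 0 calls, which became 2 with the length and GC trend removed. The median change ran from 0.039 to 0.075 for Mrpl, from -0.0052 (without mouse 3) to 0.048 (mean over genes) for Mrps, and from 0.014 (without mouse 6) to 0.062 (without mouse 3) for the gap. The Mrps median and the gap thus changed several-fold, and the Mrps median also changed sign. Of 29 named members, 22 kept their sign in every fit. The others lay near 0 and turned as follows. With thinned reads the changes were -0.048 for Mrpl48, 0.0040 for Mrpl50, -0.011 for Mrpl9, -0.060 for Mrps10, 0.015 for Mrps30, -0.0095 for Gabpa and -0.022 for Nrf1. With the length and GC trend removed they were -0.0094 for Mrpl28, 0.0054 for Mrpl47, 0.0063 for Mrpl50, 0.041 for Mrps30 and 0.0036 for mt-Rnr2. Mrps10 was -0.0043 with RLE scaling, -0.00050 by edgeR, -0.0032 by DESeq2 and -0.00088 by limma-voom, and Nrf1 was -0.00082 with RLE scaling. With 1 mouse left out the changes ran from -0.0023 to 0.11 for Mrpl28, -0.055 to 0.016 for Mrpl47, -0.063 to 0.018 for Mrpl50, -0.014 to 0.055 for Mrpl9, -0.023 to 0.045 for Mrps10, -0.072 to 0.042 for Mrps30, -0.031 to 0.072 for Gabpa, -0.025 to 0.037 for Nrf1, -0.12 to 0.025 for mt-Rnr1 and -0.12 to 0.037 for mt-Rnr2. The cause of these shifts was not tested. Mrps34 (15 to 47 reads), Mrpl23 and Mrps36 are limited by depth.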
